A study of Neurospora crassa with 12 samples.

Results

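Actin filaments and microtubules are the tracks of the fungal cytoskeleton, and this account follows the mRNAs of 6 *Neurospora crassa* genes that build them or move along them. The genes were chosen by locus number: actin (NCU04173, *act*), β-tubulin (NCU04054, *Bml*), the α-tubulins NCU09132 (*tba-1*) and NCU09468 (*tba-2*), the kinesin-1 motor gene *nkin* (NCU09730, *kin-1*), and *ro-1* (NCU06976), which encodes the heavy chain of cytoplasmic dynein. They are 6 of 9730 genes in the independent mRNA-seq tables and 6 of the 9015 genes listed in the accompanying ones, and all 6 passed the filters on low values in both. The rule names the genes and uses no measured value, but it was written with earlier results of these data known.

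The study asked how loss of the tRNA-adenosine deaminase ADAT2, which makes inosine at the wobble position of tRNAs, changes translation and gene expression. The WT strain 87-3 (*bd*, mating type a) was set beside Si*adat2*, made in strain 301-6 (*bd*, mating type A, *his-3*) by inserting at *his-3* an *adat2* inverted repeat driven by the *qa-2* promoter and purified through microconidia to a homokaryon. Both strains received quinic acid (QA, 0.01 M), the inducer of that promoter, so the WT control was exposed to it as well, and both grew for 3 days on plates and 1 day shaking at 200 rpm in 0.1% glucose under constant light. Because the strains also differ in mating type and in the *his-3* locus, silencing and strain background cannot be told apart. Independent mRNA-seq came from cultures without cycloheximide (CHX), an inhibitor of translation elongation, and accompanying mRNA-seq came from cultures given CHX for 10 min before harvest. Each strain had 2 replicates in each kind, which makes 8 libraries. The p-values measure the spread between those replicates alone, estimated with variance shared across genes.

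In filamentous fungi, growth takes place at the hyphal tip. Actin cables and patches serve secretion and endocytosis there, while microtubules, polymers of paired α- and β-tubulin, carry organelles over longer distances. Kinesin-1 walks towards microtubule plus ends and cytoplasmic dynein towards minus ends. *Neurospora* dynein mutants were found by their curled, rope-like hyphae, hence the name ropy (*ro*).

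The accompanying libraries held 961703 and 2361460 gene-assigned reads in WT against 1547105 and 2777576 in Si*adat2*, and read depth is unknown for the independent libraries, whose tables give FPKM (fragments per kilobase, scaled to library size). The silenced gene did not check the strain labels. It had 8 and 25 reads in WT against 16 and 90 in Si*adat2* in the accompanying mRNA-seq (log2 fold change 0.91, SE 0.46, edgeR adjusted p = 0.1162), a value that was −0.16 without Si*adat2* replicate 2 and 1.41, called higher, without Si*adat2* replicate 1 (adjusted p = 0.8854 and 0.009494). It is listed at 0 in all 4 independent libraries, where an exact 0 can be a failed estimate. The mating type A genes, listed at 0 or below 0.65 FPKM throughout, gave no check either. The study itself reported a large fall of *adat2* mRNA in Si*adat2* by quantitative PCR, and less wobble inosine by tRNA sequencing. Its silencing construct carries *adat2* sequence, and whether reads from the construct were counted as *adat2* was not tested. The strains also differed in conidiation (asexual spore) markers. The summed level of 4 such genes (*con-6*, *con-8*, *con-10*, *con-13*) was 2261 to 2315 FPKM in WT and 4346 to 5795 in Si*adat2* in the independent mRNA-seq. With the hydrophobin gene *eas* added, 5 of 5 were higher in the accompanying Si*adat2* libraries, with sums of 4034 and 4199 FPKM in WT against 154800 and 125300 in Si*adat2*, and *eas* alone took 6.95% and 5.29% of the Si*adat2* reads against 0.122% and 0.127% of the WT reads. The part of this difference in the results that follow was not tested.

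Among the 6 genes, actin mRNA was lower in Si*adat2* in both kinds of mRNA-seq, and β-tubulin, the α-tubulin gene NCU09132 and *nkin* were called different in neither. The second α-tubulin gene NCU09468 was higher in the independent mRNA-seq, where it rose to the level of its paralog. Dynein heavy chain mRNA was higher in the accompanying mRNA-seq, by a fold of 1.537 in the fit to read counts. Its mean FPKM in Si*adat2* was 1.905 times that in WT. On that FPKM scale the median log2 fold change of all genes was itself 0.37. A gene was called when its adjusted p (Benjamini-Hochberg over all genes tested, limma for the independent and edgeR for the accompanying libraries) was under 0.05. That made 1 member higher and 1 lower in each kind, to be read against a background in which 20.9% of 7547 genes were called higher and 28.3% lower in the independent mRNA-seq, and 23.9% of 7362 higher and 25.9% lower in the accompanying mRNA-seq. No member passed a 2-fold ratio of mean FPKM in either kind, where 13.5% and 21.9% of genes were above it and 12.0% and 10.6% below its inverse. The strains did not overlap for 4 of 6 members in the independent and 5 of 6 in the accompanying FPKM, against 78.5% and 78.0% of all genes.

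**Figure D1:**
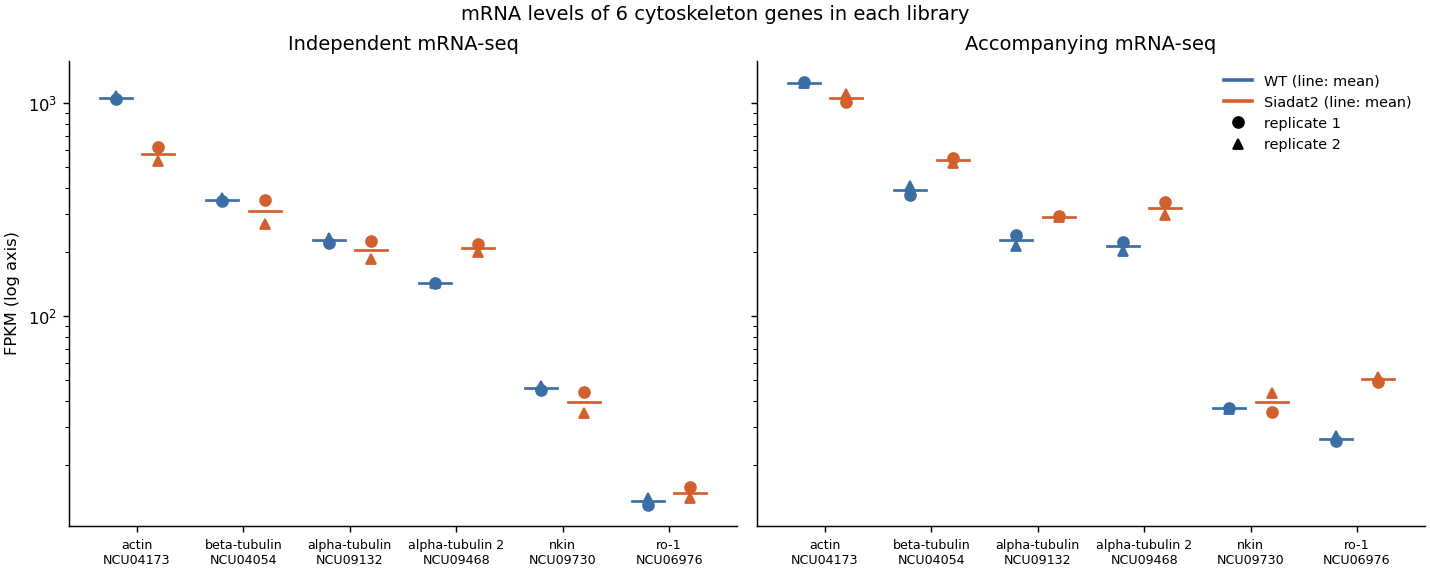
FPKM of each of the 6 genes in the 4 libraries of each kind, on a log axis, with WT in blue, Si*adat2* in orange, circles for replicate 1, triangles for replicate 2 and a short line at the mean of 2 replicates. Actin is at the top in every library (534.4 to 1250 FPKM), and the motor genes are at the bottom, with *ro-1* between 13.0 and 51.83 FPKM.

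Actin (chromosome V, 5086770 to 5089247 in the NC12 assembly) had the largest FPKM of the 6 in every library. In the independent mRNA-seq its level was 1040 and 1077 FPKM in WT against 620.4 and 534.4 FPKM in Si*adat2*. The lower WT value lay far above the higher Si*adat2* value, and the Si*adat2* mean was 0.5454 of the WT mean (577.4 ± 60.76 against 1059 ± 26.44 FPKM, SD, n = 2 each). In bulk RNA, less mRNA per hypha and fewer hyphae that express it cannot be told apart. The fitted log2 fold change was −0.88 (SE 0.11, 95% interval −1.20 to −0.56, limma adjusted p = 0.008222), below the median of −0.13 over all genes in that fit. Without WT replicate 1 or 2 the call was lost, at adjusted p = 0.1091 and 0.1161, with all-gene calls falling to at most 674 higher and 385 lower.

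For the accompanying libraries, actin had 1691 and 4060 reads in WT against 2171 and 4179 in Si*adat2*, or 1250 and 1236 against 1014 and 1095 FPKM. The strains again did not overlap, and edgeR gave a log2 fold change of −0.54 (SE 0.10, 95% interval −0.75 to −0.34, adjusted p = 0.0002686). The size of the change depended on the scaling. On the deposited FPKM, which divide by the library total, the median of all genes was 0.37 above 0 on the log2 scale, actin was at −0.24 and the call was lost (limma adjusted p = 0.07488). With the trimmed-mean (TMM) scaling of the count fit, the median of all genes was 0.03. Actin was below the median of all genes under either scaling.

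β-Tubulin (chromosome VI, 2582865 to 2585515) is also the gene to which the study normalized its quantitative PCR. Its level in the independent mRNA-seq was 347.3 and 356.4 FPKM in WT against 351.1 and 269.6 FPKM in Si*adat2*. The strains overlapped, since Si*adat2* replicate 1 lay between the WT libraries. The log2 fold change was −0.19 with a 95% interval of −0.65 to 0.26 (limma adjusted p = 0.3644). A decrease of up to 0.65 and an increase of up to 0.26 on the log2 scale are thus both within its error. Without Si*adat2* replicate 1 it was −0.38 and called lower (adjusted p = 0.01825), and without Si*adat2* replicate 2 it was 0.00 to the second decimal (adjusted p = 0.9461).

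Accompanying β-tubulin reads numbered 582 and 1559 in WT against 1378 and 2315 in Si*adat2*. The edgeR log2 fold change was 0.16 (SE 0.11, 95% interval −0.07 to 0.38, adjusted p = 0.2497). The deposited FPKM, at 369.9 and 408.3 in WT against 553.3 and 521.9 in Si*adat2*, did not overlap, and on that scale β-tubulin was called higher by 0.47 (limma adjusted p = 0.01203), close to the all-gene median of 0.37. 

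The α-tubulin gene NCU09132 (chromosome I, 5446124 to 5449418) had 221.0 and 232.4 FPKM in WT against 224.8 and 184.5 in Si*adat2* in the independent mRNA-seq. As for β-tubulin, Si*adat2* replicate 1 lay between the WT values and replicate 2 below them. The log2 fold change was −0.15 (95% interval −0.52 to 0.21, limma adjusted p = 0.3721), and −0.30 with a call without Si*adat2* replicate 1 (adjusted p = 0.04674) but −0.01 without replicate 2 (adjusted p = 0.8618). Accompanying reads of 384 and 826 in WT against 742 and 1310 in Si*adat2* gave 0.07 (95% interval −0.18 to 0.31, edgeR adjusted p = 0.66), and −0.03 without WT replicate 2. On the deposited FPKM it was 0.37 (limma adjusted p = 0.03435), which is the shift of all genes on that scale.

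NCU09468, the other α-tubulin gene (chromosome II, 4376995 to 4380245), had 142.1 and 142.6 FPKM in WT against 216.9 and 200.3 FPKM in Si*adat2* in the independent mRNA-seq. Both Si*adat2* libraries were above both WT libraries, with a ratio of means of 1.465. The log2 fold change was 0.55 (SE 0.08, 95% interval 0.32 to 0.77, limma adjusted p = 0.0108), and the call was lost without WT replicate 1 or 2 (adjusted p = 0.1264 and 0.1236). Accompanying reads of 350 and 777 in WT against 853 and 1329 in Si*adat2* gave 0.29 with a 95% interval of 0.03 to 0.55, which missed the threshold after adjustment (edgeR adjusted p = 0.05778). It was called higher in 4 of 9 alternatives, at 0.42 without Si*adat2* replicate 2 (adjusted p = 0.01467) and at 0.59 on the deposited FPKM (limma adjusted p = 0.008616), and the range over all was 0.15 to 0.59, with adjusted p from 0.001737 to 0.4479.

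**Figure D2:**
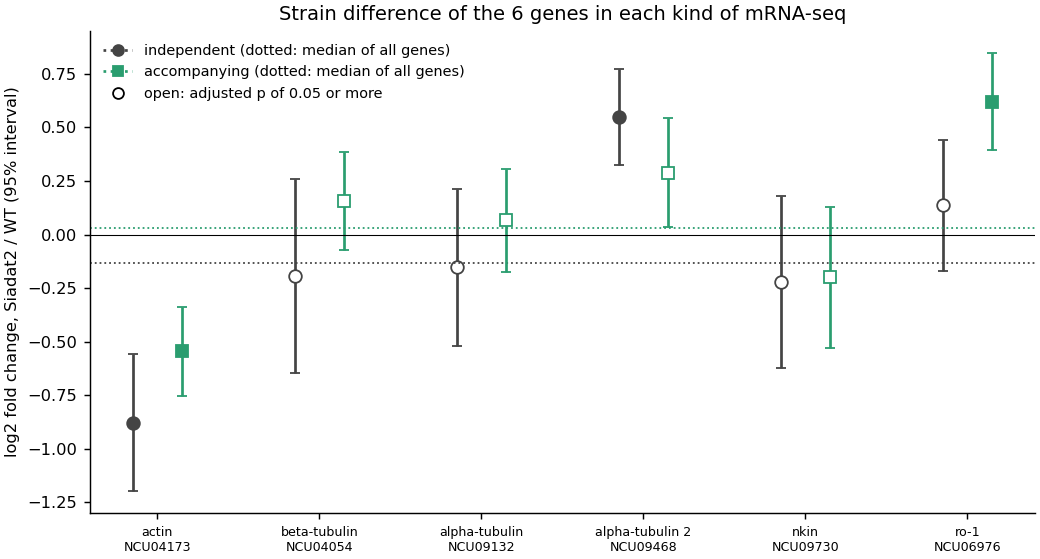
Log2 fold change of Si*adat2* over WT for each gene, with its 95% interval, from limma on the independent libraries (circles) and edgeR on the accompanying libraries (squares), 2 replicates per strain. Filled symbols are called, and the dotted lines mark the median of all genes (−0.13 and 0.03). Actin lies below both lines with filled symbols in both kinds, at −0.88 and −0.54.

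Kinesin-1 and dynein pull in opposite directions along microtubules, and their mRNAs are taken here in turn. The *nkin* gene (chromosome IV, 1998208 to 2002351) had 44.74 and 46.84 FPKM in WT against 43.88 and 35.03 in Si*adat2* in the independent mRNA-seq, with Si*adat2* replicate 1 just below the WT values. The log2 fold change was −0.22 (95% interval −0.62 to 0.18, limma adjusted p = 0.2628), and −0.38 with a call without Si*adat2* replicate 1 (adjusted p = 0.03123) but −0.06 without replicate 2 (adjusted p = 0.3797). Accompanying reads of 113 and 270 in WT against 171 and 372 in Si*adat2* gave −0.20 (95% interval −0.53 to 0.13, edgeR adjusted p = 0.3047). On the deposited FPKM (37.13 and 36.55 against 35.49 and 43.35) the strains overlapped and the sign turned, at 0.09.

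Dynein heavy chain gene *ro-1* (chromosome IV, 4729512 to 4743787) is the longest of the 6, with a coding length of 13104 bp. In the independent mRNA-seq it was at 13.0 and 13.95 FPKM in WT against 15.68 and 14.0 in Si*adat2*, a log2 fold change of 0.14 (95% interval −0.17 to 0.44, limma adjusted p = 0.3451). In the accompanying mRNA-seq it had 350 and 896 reads in WT against 1057 and 1981 in Si*adat2*, or 25.82 and 27.23 against 49.26 and 51.83 FPKM. There both Si*adat2* libraries lay above both WT libraries in FPKM. The median of all genes on that scale was itself 0.37 above 0 in log2 fold change. In the count fit, where that median was 0.03, *ro-1* had a log2 fold change of 0.62 (SE 0.11, 95% interval 0.39 to 0.85, edgeR adjusted p = 0.0001831). It was called higher in all 9 alternatives to that fit, between 0.59 and 0.93.

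Whether the strain difference itself depended on the kind of mRNA-seq was tested with a strain by kind term on the FPKM of all 8 libraries. Read as independent minus accompanying, that term was −0.64 for actin (SE 0.14, limma adjusted p = 0.01016), −0.66 for β-tubulin (adjusted p = 0.02874), −0.52 for NCU09132 (adjusted p = 0.04133) and −0.79 for *ro-1* (adjusted p = 0.009659). The remaining members were not called, with −0.04 for NCU09468 and −0.31 for *nkin*. These 4 calls of 6 stood against 34.0% of 7171 genes called in that direction (15.9% in the other, with no member), and the median of all genes was itself −0.53. Of 11 alternatives, NCU09132 lost its call in 8, β-tubulin in 6, *ro-1* in 2 and actin in 1. Leaving out either independent WT library or either accompanying Si*adat2* library ended the call of β-tubulin (adjusted p from 0.06224 to 0.08466) and of NCU09132 (0.09059 to 0.1294). So did leaving out accompanying WT replicate 1 for β-tubulin (0.08152), accompanying WT replicate 2 or independent Si*adat2* replicate 2 for NCU09132 (0.1048 and 0.06374), and independent WT replicate 2 for *ro-1* (0.05448). When every library was brought to the same median, no member was called, with adjusted p from 0.09037 to 0.7169. CHX, RNA extraction, library kit and counting all differ between the kinds and cannot be told apart.

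Ratios between genes within a library do not depend on its scaling. Actin over β-tubulin, in FPKM, was 2.994 and 3.023 in WT against 1.767 and 1.983 in Si*adat2* in the independent mRNA-seq. The accompanying values were 3.378 and 3.028 in WT against 1.832 and 2.099 in Si*adat2*. The strains did not overlap in either kind, and the WT and Si*adat2* means were 3.009 and 1.875 in the first kind, 3.203 and 1.965 in the second. With 2 libraries per strain an exact two-sided permutation test cannot go below 0.33, so these ratios are given as values with no test. For single genes the strains did not overlap in 78.5% (independent) and 78.0% (accompanying) of those tested. The like share over pairs of genes was not computed, here or for the ratios that follow.

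The share of each α-tubulin gene in their sum did not overlap between strains either. NCU09132 made up 60.87% and 61.96% of summed α-tubulin FPKM in WT against 50.89% and 47.96% in Si*adat2* in the independent mRNA-seq. Reads from sequence shared by these paralogs could have been split between them, and the independent tables give NCU09468 1 gene identifier with its neighbour NCU09467. In the accompanying mRNA-seq the share of NCU09132 was 52.08% and 51.29% against 46.28% and 49.4%. Both kinds thus had lower shares in Si*adat2*, by a smaller step in the second. The sum of both α-tubulins over β-tubulin was higher in Si*adat2* in the independent libraries (1.045 and 1.052 against 1.258 and 1.428) and overlapped in the accompanying ones (1.25 and 1.019 against 1.148 and 1.13).

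For the motors, *nkin* over *ro-1* was 3.442 and 3.357 in WT against 2.799 and 2.503 in Si*adat2* in the independent mRNA-seq. It was 1.438 and 1.342 against 0.7206 and 0.8364 in the accompanying mRNA-seq, so kinesin mRNA exceeded dynein mRNA per length in every library except the accompanying Si*adat2* pair. The ratio in the independent libraries rests on how *ro-1* transcripts are counted. With its first annotated transcript alone, which held 11.6% to 22.6% of the gene's FPKM, the values were 15.22 and 28.91 in WT against 13.45 and 13.31 in Si*adat2*, again with no overlap.

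**Figure D3:**
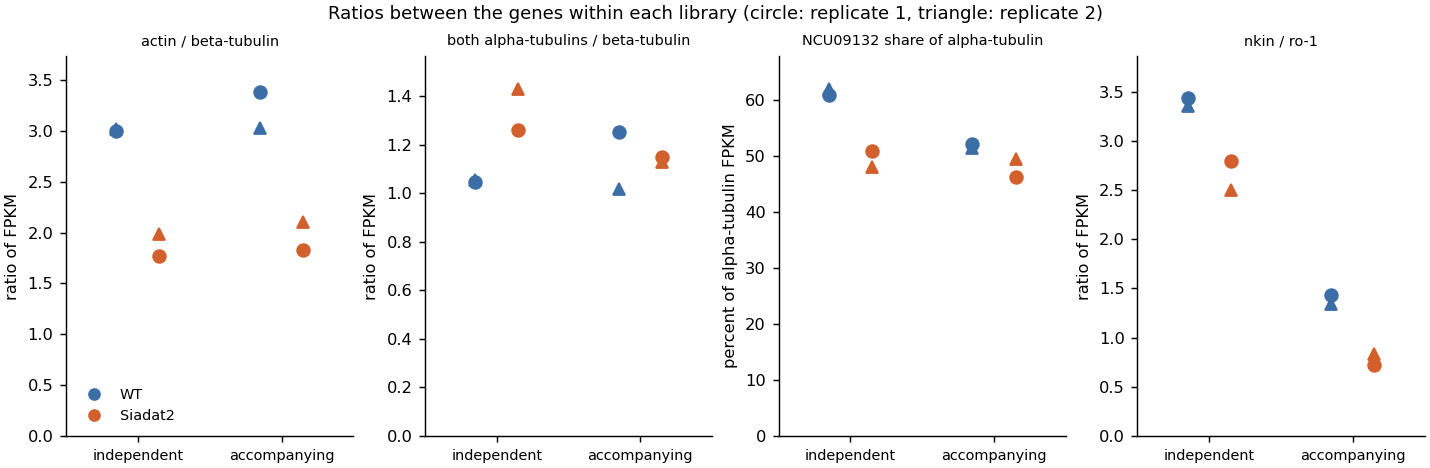
FPKM ratios within each library (from left to right, actin over β-tubulin, both α-tubulins over β-tubulin, the share of NCU09132 in α-tubulin as a percent, and *nkin* over *ro-1*), with WT in blue, Si*adat2* in orange and each axis starting at 0. The strains overlap only for α-tubulin over β-tubulin in the accompanying libraries, where 78.5% (independent) and 78.0% (accompanying) of single genes do not overlap either. Actin over β-tubulin is between 2.994 and 3.378 in WT and between 1.767 and 2.099 in Si*adat2*.

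By mean FPKM in WT, the order was actin, β-tubulin, NCU09132, NCU09468, *nkin* and *ro-1* in both kinds, and neighbours did not overlap except the α-tubulins in the accompanying libraries. Actin stood at the 99.5th and *ro-1* at the 53.5th percentile of gene means in independent WT. In Si*adat2* the α-tubulins, and in the accompanying libraries the motor genes, stood in the opposite order. NCU09468 averaged 208.6 FPKM and NCU09132 204.7 in the independent mRNA-seq, with overlapping replicates. In the accompanying mRNA-seq NCU09468 was above NCU09132 (319.8 ± 30.23 against 292.6 ± 1.832 FPKM, SD, n = 2) and *ro-1* above *nkin* (50.54 ± 1.818 against 39.42 ± 5.555 FPKM), with no overlap in either pair.

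Actin and *ro-1* each have a pair of annotated transcripts in the independent tables. The second actin transcript took 52.9% and 53.0% of the gene's FPKM in WT against 58.1% and 54.5% in Si*adat2*, and the FPKM of both transcripts were lower in both Si*adat2* libraries. For *ro-1* the first transcript held 22.6% and 11.6% in WT against 20.8% and 18.8% in Si*adat2*, with overlapping strains. The Cufflinks bounds deposited with these values could not serve as errors. For β-tubulin and NCU09468 the FPKM lay above its own upper bound in all 4 libraries (347.302 against bounds of 288.275 and 295.159 for β-tubulin in WT replicate 1), and 45.6% of the 21230 transcript values of at least 10 FPKM lay outside theirs.

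Codon bias separates the filament genes from the motor genes. The codon bias index (CBI), 0 for random codon use and 1 for the strongest bias, is listed as 0.753 for β-tubulin, 0.698 for actin, 0.684 for NCU09468 and 0.54 for NCU09132, all above the 90th percentile of 0.476 over 9015 genes. It was 0.305 for *nkin* and 0.292 for *ro-1*, nearer the median of 0.211. The α-tubulin gene that rose in the independent mRNA-seq was the more biased of the pair, and the 43 other cytoskeleton genes with a value had a median of 0.399.

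**Figure D4:**
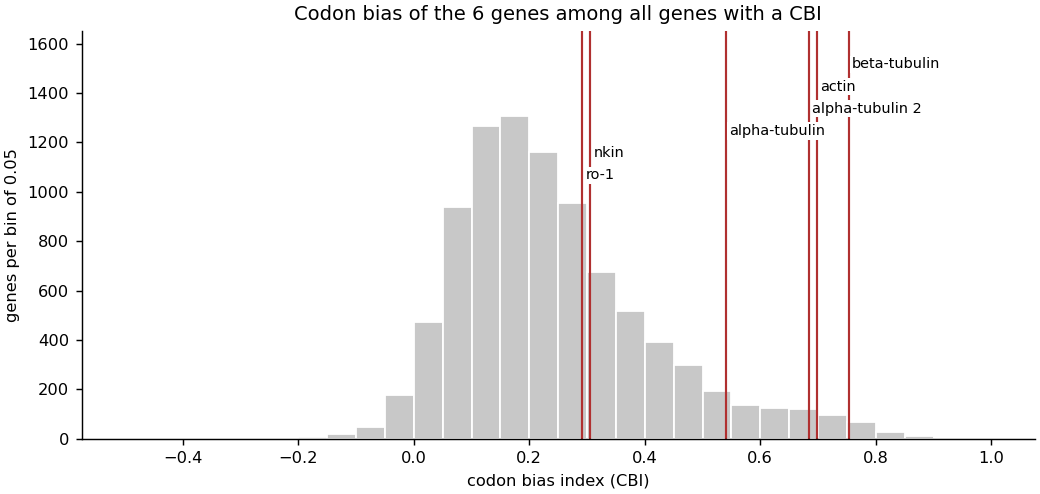
Histogram of CBI over 9015 genes in bins of 0.05, with a vertical line at the value of each of the 6 genes. The 4 filament genes stand in the right tail between 0.54 and 0.753, and the motor genes at 0.292 and 0.305 lie inside the main body.

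Other cytoskeleton genes were taken from 44 whose descriptions in the study's protein table name such a protein. In the independent mRNA-seq 42 were tested, of which none was called higher and 19 lower (20.9% and 28.3% of all genes), with a median log2 fold change of −0.48 beside −0.13 for all genes. The accompanying mRNA-seq had 43 tested, of which 15 were called higher and 5 lower (23.9% and 25.9% of all genes), with a median of 0.05 beside 0.03. Of the 42 tested in both, 4 were lower in both and 2 were lower in the first and higher in the second. The like shares over all genes were not computed, so these joint counts have no background to be read against. In the independent mRNA-seq, leaving out either WT replicate reduced the lower calls among these genes and among all genes alike, with a lone WT library left.

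Of the 4 genes lower in both kinds, 3 encode actin-related or actin-binding proteins, groups that held 6 and 14 of the 42 genes tested in both. The Arp2/3 complex nucleates branched actin at endocytic patches, and its *arp-3* subunit gene was at 181.3 and 187.5 FPKM in WT against 93.22 and 91.18 in Si*adat2* in the independent mRNA-seq, and at 283.5 and 257.8 against 141.9 and 145.2 in the accompanying one. The log2 fold changes had a 95% interval of −1.20 to −0.80 (limma adjusted p = 0.002298) and a value of −1.22 (edgeR adjusted p = 4.159e-07). The *arp2* gene fell by 1.04 and by 0.68 on the log2 scale. Coronin (*crn*), which binds actin patches, was at 62.24 and 62.29 FPKM against 37.45 and 26.78, a change of −0.97, and fell by 1.18 in the accompanying mRNA-seq. Among the 6 actin-related genes, 4 were lower in the independent mRNA-seq, and 2 were higher and 2 lower in the accompanying one, the largest rise being that of *arp-4* (0.97), whose yeast counterpart works in chromatin complexes. Of 14 actin-binding genes tested in each kind, 6 were lower and none higher in the first, and 6 were higher and 1 lower in the second. Over all genes, 20.9% were called higher and 28.3% lower in the first kind, and 23.9% and 25.9% in the second.

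The 2 genes with opposite calls in the 2 kinds encode an actin capping subunit and a myosin heavy chain. The actin capping protein α subunit NCU03911, which blocks filament ends, was at 194.1 and 193.5 FPKM in WT against 103.8 and 132.8 in Si*adat2* in the independent mRNA-seq (log2 fold change −0.72), but at 315.9 and 285.3 against 541.1 and 613.7 in the accompanying mRNA-seq (0.64). The myosin heavy chain gene *myo2* (NCU00551) did likewise, at −0.56 and 0.51. NCU02111, described as myosin-5, had the largest rise among the 4 myosin genes in the accompanying mRNA-seq, at 1.31. All 4 were called higher there, where 23.9% of all genes were. In the independent mRNA-seq NCU02111 was at 0.23 with no call. NCU07010, described as a cortical actin protein, rose by 0.92 in the accompanying mRNA-seq.

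Of 3 other kinesin and dynein genes in the list, 2 were higher in the accompanying mRNA-seq, where 23.9% of all genes were, with the kinesin gene NCU02626 at 0.85, and none was called in the independent mRNA-seq. The kinesin gene *kin-3* (NCU03715), outside that list and added after its values were seen, rose by 1.95 in the accompanying mRNA-seq (edgeR adjusted p = 0.00409), from 2.2 and 1.088 FPKM in WT to 7.225 and 6.864 in Si*adat2*. Its value in the independent mRNA-seq was 0.14, with no call, and *nkin-2* (NCU06733), added likewise, was called in neither kind, at 0.36 in the accompanying mRNA-seq. None of the microtubule-associated and tubulin-modifying genes was called, with 3 tested in the independent and 4 in the accompanying mRNA-seq. The shares of all genes called were 20.9% higher and 28.3% lower in the independent mRNA-seq, and 23.9% and 25.9% in the accompanying one. The septin gene NCU02464 fell by 0.55 in the independent mRNA-seq.

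Actin and tubulin are folded by the CCT chaperonin, to which prefoldin delivers them. Of 11 such genes, 7 were lower and none higher in the independent mRNA-seq, and 1 was higher and 2 lower in the accompanying one. Over all genes, 20.9% were higher and 28.3% lower in the first kind, and 23.9% were higher and 25.9% lower in the second. The CCT subunit gene NCU02839 was lower in both kinds (−0.66 and −0.58). Prefoldin subunit 3 (NCU02264) fell by 0.81 in the independent mRNA-seq, and prefoldin subunit 2 (NCU09249) rose by 0.80 in the accompanying mRNA-seq.

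The other ropy genes and *nudf-1*, a relative of the dynein regulator LIS1, were counted with *ro-1* left out. Of 8 tested in the independent mRNA-seq, *nudf-1* was higher at 0.72 and 3 were lower, the lowest being *ro-6* at −0.61. Of 9 in the accompanying mRNA-seq, *ro-4*, which encodes the Arp1 subunit of dynactin, was higher and *ro-11* lower, at 0.74 and −0.47. The *ro-4* gene was lower in the independent mRNA-seq, at −0.50. Of all genes, 20.9% were called higher and 28.3% lower in the independent mRNA-seq, and 23.9% and 25.9% in the accompanying mRNA-seq. The 3 of 8 lower calls lay somewhat above that share, and the other counts lay below theirs.

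**Figure D5:**
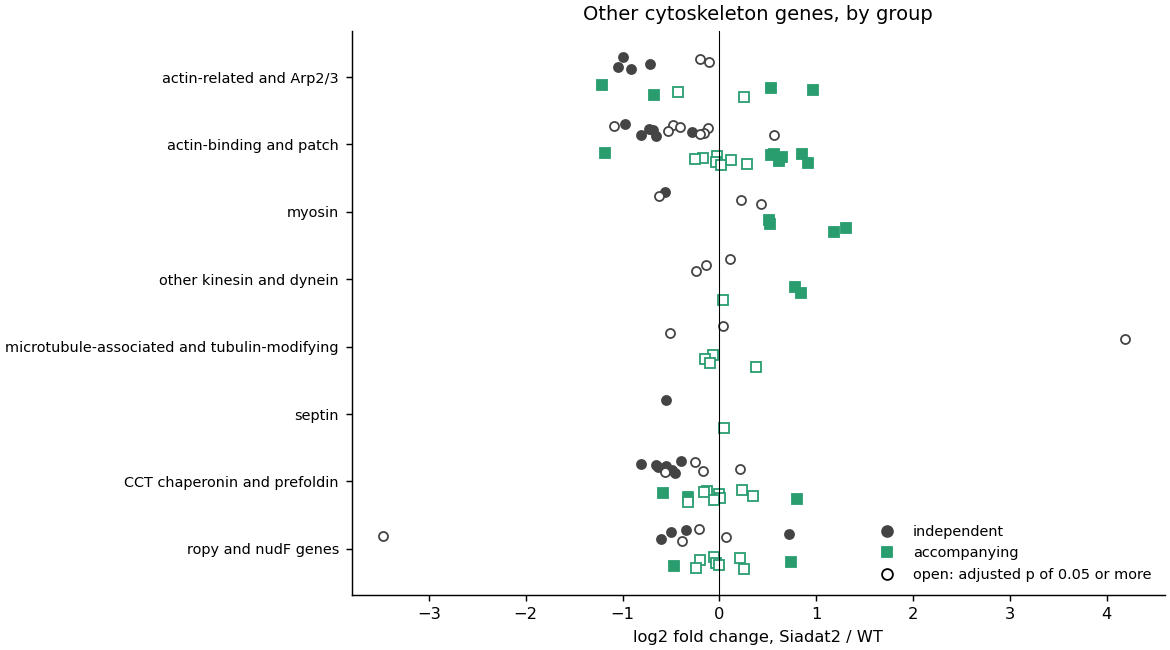
Log2 fold change of Si*adat2* over WT for each tested gene of 8 groups, circles from the independent and squares from the accompanying libraries, filled where the adjusted p was under 0.05. In the independent libraries the filled circles lie left of 0 except *nudf-1* at 0.72, while the 4 myosin squares all lie right of it, and the open circles at 4.20 (NCU04743) and −3.47 (*ro-12*), singled out after their values were seen, each have 1 library listed at 0.

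As a description of likeness, the distance between genes was taken as the Euclidean distance of log2(FPKM + 0.1), centred within each kind, over the 8 libraries. Values were not scaled by variance, so genes that change little lie close to each other. Within the 6, the closest pair was β-tubulin and NCU09132, at 0.2633, and the farthest was actin and NCU09468, at 1.669. The median distance to all genes compared was 1.092 from β-tubulin and 1.071 from NCU09132. How many genes lay closer to either than 0.2633 was not counted. Among 4816 genes with a mean of at least 10 FPKM, the nearest to actin was NCU00899 (0.124), to β-tubulin *prd-6* (0.117) and to NCU09132 *col-26* (0.1395). The nearest to NCU09468 was *ppm-1* (0.1423), to *nkin* NCU09529 (0.1499) and to *ro-1* NCU00273 (0.1579). The paralogous α-tubulins, at 0.7601 from each other, were farther apart than NCU09132 was from β-tubulin.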

How the data were processed

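The authors aligned the independent reads (TruSeq libraries, no CHX) and deposited FPKM per annotated transcript with confidence bounds, which the submitters' processing notes tie to TopHat2 and Cufflinks with no version given. A coverage per transcript deposited beside them was not used. For the accompanying mRNA-seq (ARTseq kit, CHX) the deposited tables hold read counts per coding sequence, FPKM on the authors' library totals, the codon bias index (a score) and a length that includes 100 bp on each side. Of 9730 genes, 72 with a missing or failed transcript were left out of the independent fits. Ribosome footprint tables hold codon averages and were not used.

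Transcript FPKM were summed per gene and tested with limma 3.58.1 (trended empirical Bayes) on log2(FPKM + 0.1) for genes with a mean of at least 1 FPKM, so fold changes of low genes are understated. Counts were tested with edgeR 4.0.16 (quasi-likelihood, TMM, filterByExpr with a minimum count of 10), both in R 4.3.3. The strain by kind term came from limma on all 8 libraries. P-values were adjusted over all genes tested, at a threshold of 0.05. Fits were tested on simulated data. DESeq2 1.42.0, other scalings and filters, a replicate block and leaving out each library were alternatives. Same-numbered libraries had deviations correlated at 0.0087 (independent) and 0.2206 (accompanying), from 2 pairs each.

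Outside the 6 members, the text names list genes called in both kinds, the largest called rise and fall per list and kind, and the nearest gene to each member. Genes for checks of labels and conidiation are named too. *kin-3*, *nkin-2*, NCU04743 and *ro-12* fit none of these rules and were named after their values were seen. The members, lists and tests were chosen with earlier results of these data known. Symbols and coordinates are from RefSeq (NC12).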

Additional observations from a re-analysis of the deposited data

Results flagged for a closer look

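By the interaction test on FPKM, the strain difference was called lower in the independent than in the accompanying mRNA-seq for 4 of the 6 genes. Of 7171 genes, 34.0% were called in that direction and 15.9% in the other. As independent minus accompanying, on the log2 scale, the term was −0.64 for actin, −0.66 for β-tubulin, −0.52 for the α-tubulin gene NCU09132 and −0.79 for *ro-1* (limma adjusted p = 0.01016, 0.02874, 0.04133 and 0.009659). The median of all genes was −0.53 in the same fit, and with equal library medians the 4 values were −0.24, −0.26, −0.12 and −0.39, with adjusted p of 0.1639, 0.2879, 0.5782 and 0.09037.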

How the results depend on the processing

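In the independent mRNA-seq, actin stayed lower (−0.99 to −0.77) and NCU09468 higher (0.49 to 0.61) in all 11 alternatives, and each lost its call in 2 of them, those without a WT library (the lone library left is assumed to vary like the other strain). Leaving out a library moved the members called higher between 0 and 1, the members called lower between 0 and 4 (4 without Si*adat2* replicate 1), the other cytoskeleton genes called higher between 0 and 2, and those called lower between 0 and 24. Over all genes, calls of either sign also fell without a WT library and rose without a Si*adat2* library. The moves in these counts are to be read against that shift of the whole fit. The other cytoskeleton genes called higher numbered 1 with a minimum mean of 10 FPKM, with equal library medians, and with the first transcript alone. In the accompanying mRNA-seq, limma on the deposited FPKM called 4 members higher and 0 lower, called 3 other cytoskeleton genes lower and turned *nkin* to 0.09. On that scale 65.7% of all calls were higher, against 48.0% with TMM (2308 higher and 1204 lower, against 1760 and 1909), and DESeq2 called 1041 genes higher. With no filter on low counts, 2 members were called higher and *adat2* was called at 0.92 (edgeR adjusted p = 0.03539). Leaving out a library gave 1 to 2 members higher, moved *adat2* between −0.16 and 1.41, the first without Si*adat2* replicate 2, and moved NCU09132 between −0.03 (without WT replicate 2) and 0.15.

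The replicate block, where numbers are shared without a stated pairing, called 2 accompanying members higher (NCU09468 joined at 0.27, edgeR adjusted p = 0.001737), 8 other cytoskeleton genes lower and *adat2* at 0.96 (adjusted p = 0.02559). For the strain by kind term it left 3 members called, NCU09132 having been lost at adjusted p = 0.06873. It changed no other member's call.

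For the strain by kind term, equal library medians left 0 members called lower, turned NCU09468 to 0.36 and *nkin* to 0.09, moved all genes from 1142 higher and 2438 lower to 1561 and 1428, and so raised the share of higher calls from 31.9% to 52.2%. Leaving out a library gave 1 to 4 members lower. NCU09468 turned to 0.02 without accompanying WT replicate 2, to 0.06 without accompanying Si*adat2* replicate 1 and to 0.02 without independent Si*adat2* replicate 2, and was lowest at −0.14 without accompanying Si*adat2* replicate 2. The ratio of *nkin* over *ro-1* in Si*adat2* relative to WT was 0.6063 with the first transcript alone. Alternatives for *adat2* in the independent mRNA-seq gave no value, since it is listed at 0. The cause of these shifts was not tested. With 2 libraries per strain, an interval such as that of β-tubulin leaves room for changes of either sign.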
